A study of Mus musculus with 4 samples.

Results

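The 8 genes described here are regulators that carry male germ cells out of the stem cell pool, through the dividing differentiating spermatogonia and into meiosis: Kit, Kitl, Stra8, Sohlh1, Sohlh2, Dmrt1, Dmrtb1 and Nanos3. They were chosen by symbol, and all 8 were found among the 25265 genes of the deposited count table and among the 21132 genes tested. The counts came from whole testes of C57BL/6 mice at postnatal day 56, with 2 libraries under the genotype label control and another 2 under Ythdf2-vKO. The series title describes germ cell-specific mutants of Ythdf2, which encodes a reader of N6-methyladenosine (m6A) in RNA that promotes decay of its targets. The sources used here name no Cre driver and no deleted exons, do not say what the control animals carry, and do not state that each library came from a separate animal, so p-values measure only the spread between these libraries.

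Spermatogonial stem cells and their early progeny divide without the KIT receptor. Retinoic acid then drives the switch to differentiating spermatogonia, which gain KIT and depend on KIT ligand from Sertoli cells, the somatic nurse cells of the seminiferous tubule. A later pulse of retinoic acid induces STRA8, which starts the meiotic programme, while SOHLH1, SOHLH2, DMRT1 and DMRTB1 are transcription factors that set when mitosis ends and meiosis begins.

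Total counts lay between 24862518 and 29561182 per library. Libraries labelled Ythdf2-vKO did not hold less Ythdf2 than controls, with 51.0 and 53.5 CPM (counts after scaling for library size by TMM) in control, against 66.3 and 67.0 CPM in Ythdf2-vKO (log2 fold change 0.35, adjusted p 0.238, edgeR's quasi-likelihood test and the Benjamini-Hochberg method). Exons cannot be told apart in gene counts. Counts of the targeted gene were not lower there and do not settle the genotype, so the groups are called by their labels. Each direction is the libraries labelled Ythdf2-vKO against the libraries labelled control. Libraries also differed in how their counts followed GC content across genes, with Spearman coefficients of 0.0239 and -0.400 in control replicates 1 and 2 and of 0.254 and 0.189 in Ythdf2-vKO replicates 1 and 2.

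None of the 8 genes passed an adjusted p of 0.05, where 0.393% of all genes tested did, and none passed in a DESeq2 Wald test. At an unadjusted p under 0.05 in edgeR there was 1 of 8, where 14.1% of all genes tested were. The receptor gene Kit came nearest, at 1.32-fold the control level with an adjusted p of 0.289, while its ligand gene Kitl had a log2 fold change of 0.00. Per length of transcript, Dmrtb1 was present at 32.1 times the level of the next gene, Dmrt1, and its groups overlapped. Every member except Kit and Dmrt1 differed more between the libraries of at least 1 group than between the group means.

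Sequences are shown first for the ligand and receptor pair, whose transcripts differ in a motif relevant to m6A. The sequence GGACT is the best known context in which adenosine is methylated in mRNA, and a match here is a description of letters, not evidence of methylation. The search read 1 strand, that of the RNA, in the longest GENCODE M21 transcript of each gene. Kit held 2 matches in 5241 nt and Kitl 6 matches in 5648 nt. In the lines below, 21 bases of each site are written 5′ to 3′ as DNA, with the motif in capitals and the coordinates of the capitals. The first Kit site is coding and the second lies in the 3′ UTR. The first 2 Kitl sites lie in the 5′ UTR, the third is coding and the last 3 lie in the 3′ UTR. These regions follow the M21 transcripts. Kitl site 1 lies before the RefSeq start of Kitl that is used for its promoter below.
Kit site 1, plus strand, chr5:75607155-75607159 of GRCm38: tgtcagatGGACTttcaagac
Kit site 2, plus strand, chr5:75654822-75654826 of GRCm38: aaacagaaGGACTcctcctgc
Kitl site 1, plus strand, chr10:100015712-100015716 of GRCm38: cccagcctGGACTcggtgcgc
Kitl site 2, plus strand, chr10:100015917-100015921 of GRCm38: caatgctgGGACTatctgcag
Kitl site 3, plus strand, chr10:100080066-100080070 of GRCm38: gcctttaaGGACTttatggtg
Kitl site 4, plus strand, chr10:100096215-100096219 of GRCm38: acggagcaGGACTctggaggt
Kitl site 5, plus strand, chr10:100097069-100097073 of GRCm38: gaatgcaaGGACTcggaaaac
Kitl site 6, plus strand, chr10:100100117-100100121 of GRCm38: aagtcaatGGACTtgagaagt

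Per length, Kitl held 1.06 GGACT per kb and Kit 0.382. Across the 15851 protein-coding genes tested, the median was 1.04 per kb, with quartiles of 0.630 and 1.495, and 91.8% of these genes held at least 1 match. Kit was therefore below the lower quartile and Kitl near the median. The motif was absent from the transcripts of Dmrt1, Sohlh1 and Sohlh2. Dmrtb1 held 2 matches (1.075 per kb), Nanos3 held 2 (2.74 per kb, above the upper quartile) and Stra8 held 1 (0.555 per kb). The Stra8 match lies before the RefSeq start of Stra8 used below. The first Dmrtb1 match lies before the more internal RefSeq start of Dmrtb1 used below. The 3 genes without a match had log2 fold changes of 0.22, 0.21 and -0.05, and those with matches ran from 0.00 to 0.41.

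A second sequence bears on the pair of bHLH factors. SOHLH1 and SOHLH2 belong to the basic helix-loop-helix family, which binds E-boxes of the form CANNTG. RefSeq promoters (250 bases before to 50 bases after the start of transcription, GRCm38.p6) were found for 7 of the 8 genes, Dmrt1 being the one without an entry, and were searched for CANNTG, which reads the same on both strands. Of all 32851 promoters of that length, 72.3% held at least 1. Sohlh1 held 5 and Stra8 none. Among the others, Nanos3 held 2, Dmrtb1 held 3 in each of its 2 promoters, and Kit, Kitl and Sohlh2 held 1 per promoter. At least 3 were found in 17.6% of all promoters and at least 4 in 6.49%. The Dmrtb1 promoter at 107683540 to 107683839 lies inside the M21 gene and holds coding sequence. The 5 of Sohlh1 include 3 copies of CACGTG, and 3 or more copies of that form were found in 0.0883% of promoters. The 250 bases before the start of Sohlh1 follow, minus strand, 5′ to 3′, with each E-box in capitals.
Sohlh1, chr2:25847249-25847498 of GRCm38.p6, sequence from RefSeq: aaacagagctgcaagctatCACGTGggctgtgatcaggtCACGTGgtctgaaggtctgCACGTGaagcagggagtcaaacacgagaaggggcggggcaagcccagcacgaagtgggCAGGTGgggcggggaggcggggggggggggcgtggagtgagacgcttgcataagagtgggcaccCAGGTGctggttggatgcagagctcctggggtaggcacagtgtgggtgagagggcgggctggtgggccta

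Levels were compared between genes as CPM per kb of the longest transcript. Dmrtb1 was highest, between 283 and 360 CPM per kb over the 4 libraries, a level above that of 99.3% of the genes tested. It supplied between 86.2% and 89.4% of the members' summed CPM in each library. Dmrt1 came next, from 9.27 to 11.2 CPM per kb, followed by Stra8, from 6.36 to 9.57. These 2 ranges overlapped, and Dmrt1 was the higher of the pair in 3 of 4 libraries. Sohlh2 followed at 5.22 to 5.87 and was above Sohlh1, at 2.92 to 3.97, in 4 of 4 libraries. Sohlh1 was above Kit in 4 of 4 libraries too, although their ranges overlapped. Kit ranged from 2.32 to 3.41 CPM per kb and Kitl from 2.44 to 2.77. The order of Kit and Kitl was not the same in every library, with Kit higher in 2 of 4. Nanos3 was lowest, from 0.879 to 1.74 CPM per kb, and was below the other 7 in 4 of 4 libraries. In a whole testis, a lower level per gene can mean fewer cells of a type or less RNA per cell, and these cannot be told apart.

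**Figure D1:**
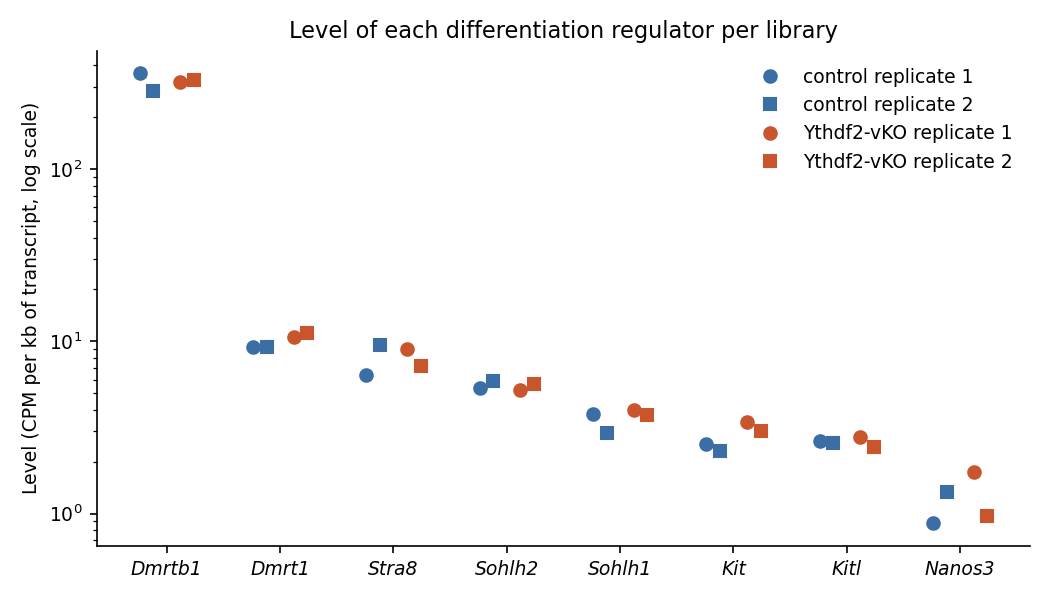
Level of each of the 8 genes in each library, as CPM per kb of the longest transcript on a log axis. Colours stand for the groups and shapes for the replicate number. Dmrtb1 sits between 283 and 360, and Dmrt1, the next, between 9.27 and 11.2, and the control and Ythdf2-vKO points overlap for every gene except Kit and Dmrt1.

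The receptor gene was examined first among the differences. Kit (ENSMUSG00000005672, plus strand of chromosome 5, 75574916 to 75656722 in GRCm38) encodes the receptor tyrosine kinase of differentiating spermatogonia. Leydig cells and mast cells also express it, and spermatids are known to make a truncated form that counts over a whole gene cannot separate. Kit had 309 and 364 counts in control, against 478 and 424 in Ythdf2-vKO. This gave 13.2 and 12.1 CPM in control, against 17.9 and 15.7 CPM in Ythdf2-vKO. Both Ythdf2-vKO libraries lay above both control libraries. The means were 12.7 ± 0.762 and 16.8 ± 1.51 CPM (SD, n = 2 each), and the log2 fold change was 0.41 with a standard error of 0.16 (adjusted p 0.289, unadjusted 0.0282, edgeR). The 95% interval of the log2 fold change, not adjusted for the number of genes, ran from 0.05 to 0.76. An unadjusted p under 0.05 was reached by 14.1% of all genes tested, by 7.65% with Ythdf2-vKO higher, and by 1 of the 8 members, Kit. The authors' deposited table gave Kit a log2 fold change of 0.40, with an adjusted p of 0.419.

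Kitl (ENSMUSG00000019966, plus strand of chromosome 10, 100015630 to 100100416 in GRCm38) encodes KIT ligand, made in the testis mainly by Sertoli cells. Its CPM were 14.9 and 14.5 in control, against 15.7 and 13.8 in Ythdf2-vKO. The Ythdf2-vKO libraries lay on either side of the control libraries. The log2 fold change was 0.00, with a standard error of 0.16 and an interval from -0.35 to 0.35, which reached 1.28-fold on its upper side. With an offset for GC content it was 0.11. The Kitl transcript has a GC content of 39.3%, the lowest of the 8. Per length, Kit over Kitl was 0.957 and 0.904 in the controls, against 1.23 and 1.23 in the Ythdf2-vKO libraries. The ratio did not overlap between the groups, and neither did Kit alone. An exact two-sided permutation test gave p = 0.333, the smallest that 2 libraries against 2 allow. Any such separation gives that value, so the test decides nothing. The ratios of Sohlh2 to Sohlh1, Dmrtb1 to Dmrt1 and Stra8 to Kit overlapped. Over the 4 libraries Kit over Kitl was 1.08 by the longest transcript of each gene and 0.665 by the merged length of all exons. For Kit the merged exons span 8911 nt and the longest transcript 5241 nt, and for Kitl 5911 and 5648 nt. The choice of length changes the ratio by the same factor in every library.

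Stra8 (ENSMUSG00000029848, plus strand of chromosome 6, 34920163 to 34939344 in GRCm38) encodes the retinoic acid-induced protein needed for entry into meiosis. It had 268 and 517 counts in control, against 437 and 348 in Ythdf2-vKO. The CPM were 11.5 and 17.2 in control, against 16.3 and 12.9 in Ythdf2-vKO, so the 2 control libraries were the lowest and the highest of all 4. The log2 fold change was 0.02 with a standard error of 0.21. Within the control group the higher library was 1.504 times the lower. The coefficient of variation there was 28.5%, where counting error alone would give 5.05%. Without control replicate 1 the log2 fold change was -0.25 and without control replicate 2 it was 0.35, neither past the threshold.

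The bHLH factors came next. Sohlh1 (ENSMUSG00000059625, minus strand of chromosome 2, 25842995 to 25847248 in GRCm38) acts with Sohlh2 in the exit from the stem cell state. Its CPM were 4.88 and 3.77 in control, against 5.12 and 4.82 in Ythdf2-vKO. Control replicate 2 was the low library, and control replicate 1 lay between the Ythdf2-vKO libraries. The log2 fold change was 0.21 with a standard error of 0.24 (adjusted p 0.764, edgeR). It was 0.03 without control replicate 2, 0.39 without control replicate 1 and 0.04 with an offset for GC content. The Sohlh1 transcript has a GC content of 58.1%.

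Sohlh2 (ENSMUSG00000027794, plus strand of chromosome 3, 55182028 to 55209957 in GRCm38) had 12.6 and 13.9 CPM in control, against 12.3 and 13.3 CPM in Ythdf2-vKO. It was the 1 gene of the 8 with a fitted value below 0, at -0.05 with a standard error of 0.17, and its interval ran from -0.41 to 0.31. The groups overlapped. Per length, Sohlh2 over Sohlh1 was 1.41 and 2.01 in control, against 1.31 and 1.51 in Ythdf2-vKO, and those values overlapped as well.

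Dmrt1 (ENSMUSG00000024837, plus strand of chromosome 19, 25505618 to 25604329 in GRCm38) encodes a DM-domain transcription factor that restrains meiosis in spermatogonia and maintains male identity in Sertoli cells. Its counts of 507 and 653 in control became 21.7 and 21.8 CPM, and those of 660 and 704 in Ythdf2-vKO became 24.7 and 26.1 CPM. Both Ythdf2-vKO libraries were above both control libraries. The log2 fold change was 0.22 with a standard error of 0.14, an interval from -0.09 to 0.53 and an adjusted p of 0.527 (edgeR). The 2 control values differed by 0.296% as a coefficient of variation, less than the 4.15% of counting error. Kit and Dmrt1 were the 2 members whose groups did not overlap, both with Ythdf2-vKO higher. Among all genes tested, groups did not overlap with Ythdf2-vKO higher in 22.7%, with Ythdf2-vKO lower in 22.6% and in either direction in 45.3%. The count of 2 of 8, with none lower, is near the first of these shares and below the last.

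Dmrtb1 (ENSMUSG00000028610, minus strand of chromosome 4, 107676290 to 107684230 in GRCm38), also known as Dmrt6, encodes another DM-domain factor, which acts in late spermatogonia at the change from mitosis to meiosis. Counts of a whole testis do not show which cells supplied the Dmrtb1 RNA, and this was not tested. Dmrtb1 had 15667 and 15765 counts in control, against 16006 and 16477 in Ythdf2-vKO. The CPM were 670 and 526 in control, against 598 and 611 in Ythdf2-vKO, so both Ythdf2-vKO libraries lay between the control libraries. The log2 fold change was 0.02 with a standard error of 0.13 and an interval from -0.27 to 0.30. This gene had the most counts of the 8, and a counting error of 0.798% in control. The control libraries nevertheless differed 1.28-fold. Without control replicate 1 the log2 fold change was 0.19, without control replicate 2 it was -0.15, and with an offset for GC content it was -0.16. None of these passed the threshold. The GC content of the Dmrtb1 transcript was 59.3%, the highest of the 8. Per length, Dmrtb1 over Dmrt1 was 38.9 and 30.4 in control, against 30.5 and 29.4 in Ythdf2-vKO.

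Nanos3 (ENSMUSG00000056155, minus strand of chromosome 8, 84173731 to 84185217 in GRCm38) encodes an RNA-binding repressor known from primordial germ cells and from undifferentiated and early differentiating spermatogonia. It had 15 and 29 counts in control, against 34 and 19 in Ythdf2-vKO. These were 0.642 and 0.967 CPM in control, against 1.27 and 0.704 CPM in Ythdf2-vKO, with the groups overlapping. The log2 fold change was 0.28 with a standard error of 0.49, and its interval, from -0.79 to 1.35, was the widest of the 8. Its upper end corresponds to a 2.55-fold higher level, which these counts did not exclude. For Nanos3 the adjusted p is empty in the authors' deposited table.

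**Figure D2:**
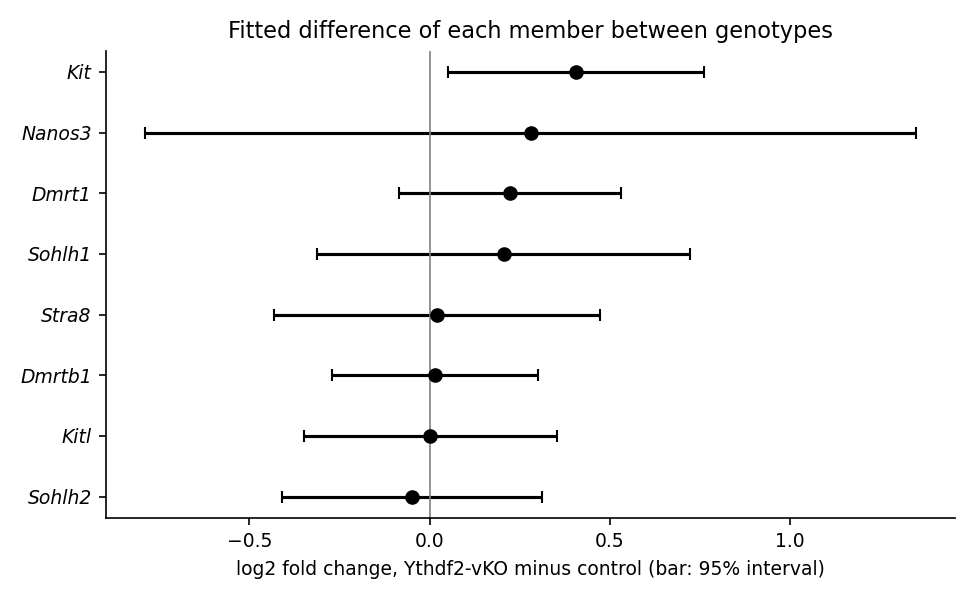
Fitted log2 fold change of each gene, Ythdf2-vKO minus control, with its 95% interval from edgeR's quasi-likelihood fit, not adjusted for the number of genes. Only the bar of Kit, from 0.05 to 0.76, lies wholly above 0, and that of Nanos3 is the widest, from -0.79 to 1.35.

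Set side by side, 7 of the 8 fitted log2 fold changes were above 0, where 50.3% of all genes tested were. The median of the members was 0.11 (0.02 without Ythdf2-vKO replicate 1) and that of all genes tested was 0.00. In absolute size the members' median was 0.13 and that of all genes 0.21. The members ran from -0.05 to 0.41. No antisense or other gene that overlaps a member in the M21 annotation was found in the count table. Only Nanos3 overlaps any annotated gene, the microRNA genes Mir181c and Mir181d on its own strand, neither of which was in the table.

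The libraries were also compared member by member, as the deviation of log2(CPM + 0.5) from the mean of the 4 libraries. Ythdf2-vKO replicate 1 lay above Ythdf2-vKO replicate 2 in 5 of the 8 genes. Control replicate 2 was above control replicate 1 in 4 of 8, against 50.5% of all genes tested. The median deviation of the 8 was -0.08 and -0.06 in the controls, against 0.11 and 0.03 in the Ythdf2-vKO libraries. Stra8 and Nanos3 were both lowest in control replicate 1, whereas Stra8 was highest in control replicate 2 and Nanos3 in Ythdf2-vKO replicate 1. Kit, Sohlh1 and Dmrtb1 were lowest in control replicate 2.

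**Figure D3:**
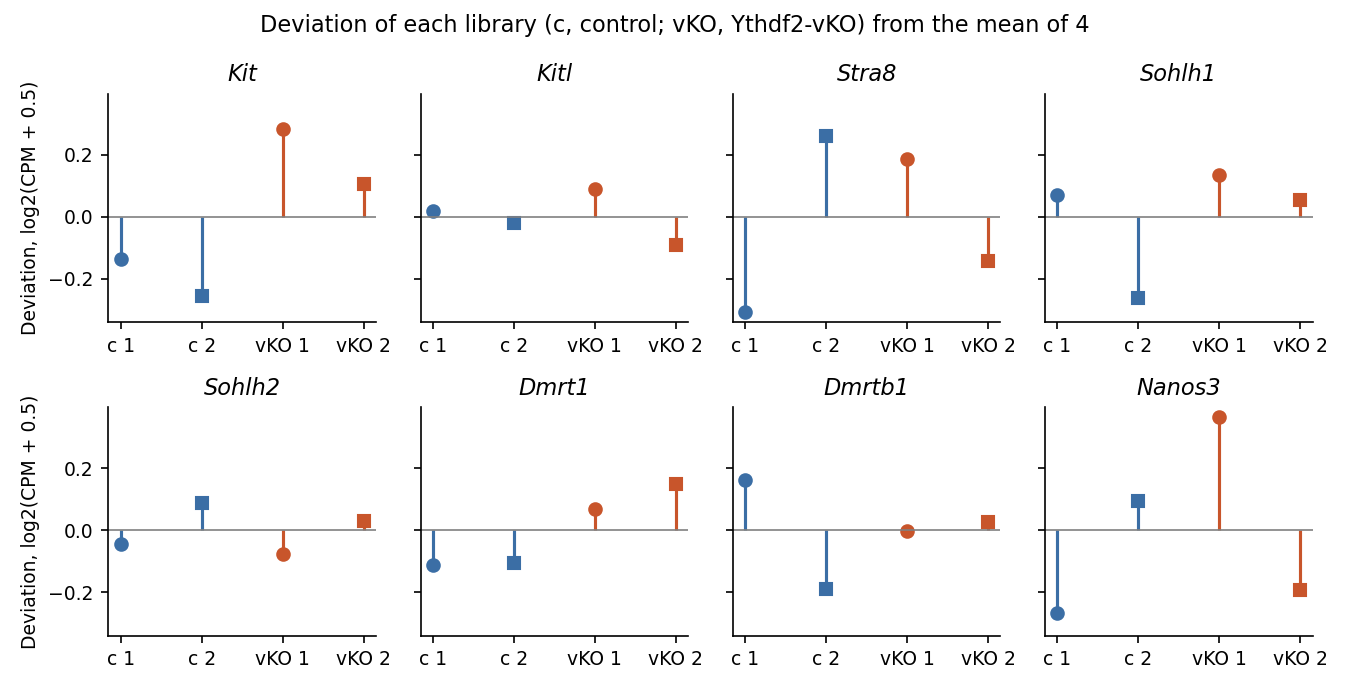
Deviation of log2(CPM + 0.5) of each library from the mean of the 4 libraries, 1 panel per gene, with c for control, vKO for Ythdf2-vKO and the replicate number. Kit and Dmrt1 have both control libraries below 0 and both Ythdf2-vKO libraries above it, and Kit, Sohlh1 and Dmrtb1 have their lowest point in control replicate 2.

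The genes around the members were taken from lists. Of 16 effectors of KIT signalling, none was called, 12 had a fitted value above 0, and the median log2 fold change was 0.17. At an unadjusted p under 0.05 there were 3, all higher, namely the adaptor gene Grb2 (0.67, adjusted p 0.105), the kinase gene Akt1 (0.34) and the PI3-kinase subunit gene Pik3r2 (0.37). With the GC offset Akt1 was 0.15 and Pik3r2 0.17. Pik3r2 was 0.18 without control replicate 2 and 0.58 without control replicate 1. Grb2 ran from 0.64 to 0.70 with a library left out. The median of the effectors was 0.08 without Ythdf2-vKO replicate 1. Of 10 tested relatives of Kit and their ligands, none was called, 2 higher and 1 lower had an unadjusted p under 0.05, and the median was 0.61. That median was 0.29 without control replicate 1, 0.24 without Ythdf2-vKO replicate 1 and 0.32 with at least 10 counts required in every library. The receptor gene Pdgfra had 5.22 and 8.74 CPM in control, against 14.9 and 14.3 CPM in Ythdf2-vKO, a log2 fold change of 1.06 with an adjusted p of 0.0725 (edgeR). It passed with library totals alone (adjusted p 0.0332), with a DESeq2 Wald test (0.0105) and with the GC offset (0.0379). It did not pass with the gene length offset (0.0948), with that offset and the replicate block (0.0682) or without a filter (0.0501). With a library left out, the log2 fold change of Pdgfra ran from 0.7336 to 1.485. Csf1, which encodes a ligand of a related receptor, had a log2 fold change of 0.78 (adjusted p 0.242). The PDGF ligand gene Pdgfa had 26.8 and 23.9 CPM in control, against 16.9 and 19.8 CPM in Ythdf2-vKO, a log2 fold change of -0.46 (adjusted p 0.209). With a library left out, Csf1 ran from 0.41 to 1.08 and Pdgfa from -0.585 to -0.354. Of 8 tested relatives of the DMRT and NANOS genes, none was called. Dmrtc2 had a log2 fold change of 0.40 and Dmrta1 of 0.33, both at an unadjusted p under 0.05. Dmrtc2 was 0.20 without control replicate 2 and 0.63 without control replicate 1.

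Lists for the stages before and at the point where the members act held no call. Of 18 tested genes of undifferentiated spermatogonia, 15 had a fitted value above 0, 3 higher and 1 lower had an unadjusted p under 0.05, and the median was 0.38 (0.16 without control replicate 2 and 0.18 without Ythdf2-vKO replicate 1). Gfra1, which encodes a receptor for GDNF, had 3.94 and 4.64 CPM in control, against 7.17 and 6.12 CPM in Ythdf2-vKO (log2 fold change 0.63, adjusted p 0.235). Id4, a gene of the stem cell state, and Lin28a, which encodes an RNA-binding protein of early spermatogonia, had values of 0.32 and 0.51. Eomes had 17 and 37 counts in control, against 3 and 5 in Ythdf2-vKO (adjusted p 0.105). Of 17 tested genes of differentiating spermatogonia and meiotic entry, 9 were above 0, 3 had an unadjusted p under 0.05, all higher, and the median was 0.00. Values in this list ran from -0.275 to 0.88. It mixes genes of spermatogonia with genes of meiotic chromosomes, so its median does not describe either kind alone. The cyclin gene Ccnd2 had a value of 0.88 (adjusted p 0.129), the retinoic acid receptor gene Rara of 0.52 (adjusted p 0.137), and Gm4969, a gene of meiotic entry, of 0.51 (adjusted p 0.311). With a library left out, Ccnd2 ran from 0.67 to 1.13 and Rara from 0.45 to 0.59. Gm4969 was 0.14 without Ythdf2-vKO replicate 1 and 0.79 without Ythdf2-vKO replicate 2.

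Markers of other cell types that express the members were measured in the same libraries. Kitl and Dmrt1 are expressed in Sertoli cells, and all 11 Sertoli markers had a fitted value above 0, with a median of 0.44 (0.28 without Ythdf2-vKO replicate 1). Their summed level was 904 to 967 CPM in control, against 1111 to 1270 CPM in Ythdf2-vKO. Of the 11, 1 was called, Wt1, at 0.71 with an adjusted p of 0.0418 (0.0501 without robust estimation, 0.338 without Ythdf2-vKO replicate 1 and 0.0824 without Ythdf2-vKO replicate 2). Kitl, at 0.00, was below the smallest of the 11 in the same fit, 0.10, but its interval from -0.35 to 0.35 covers that value. With the GC offset Kitl was 0.11 and the median of the 11 was 0.42. The single markers are not given with that offset. For Leydig cells, which express Kit, 7 of 8 markers were above 0. Their median was 0.38 (0.27 without Ythdf2-vKO replicate 1 and 0.46 without control replicate 2). Of the 8 Leydig markers, 4 had an unadjusted p under 0.05 and none was called. The sums of 301 to 365 CPM in control, against 357 to 478 CPM in Ythdf2-vKO, overlapped. Of 8 mast cell markers, 5 were not in the table. The mast cell protease gene Cpa3 had 5 and 8 counts in control, against 10 and 0 in Ythdf2-vKO. Of the 2 mast cell markers tested, Hdc and Gata2, 1 was above 0 and none was called, with a median of 0.20. Their control counts, 720 and 1004 for Hdc and 593 and 595 for Gata2, were far above those of Cpa3. Which cells supplied them was not tested. The part of these cell types in the values of Kit, Kitl and Dmrt1 was not tested.

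Markers of later germ cells were measured too. Of 10 elongating spermatid markers, 1 was above 0, none was called, 5 lower had an unadjusted p under 0.05, and the median was -0.27. Without control replicate 1 the median was -0.13, and without control replicate 2 there were 6 calls. Their sums were 12620 to 15500 CPM in control, against 12090 to 12360 CPM in Ythdf2-vKO. The 8 round spermatid markers had a median of 0.02, the 8 macrophage markers of 0.08 and the 6 tested endothelial markers of 0.40, with no call in any of them and 0, 1 and 1 genes at an unadjusted p under 0.05. The macrophage median was 0.73 without control replicate 2, and -0.15 without control replicate 1. The macrophage sum was 62.1 CPM in control replicate 1 and 84.8 to 109 CPM in the other 3 libraries.

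**Figure D4:**
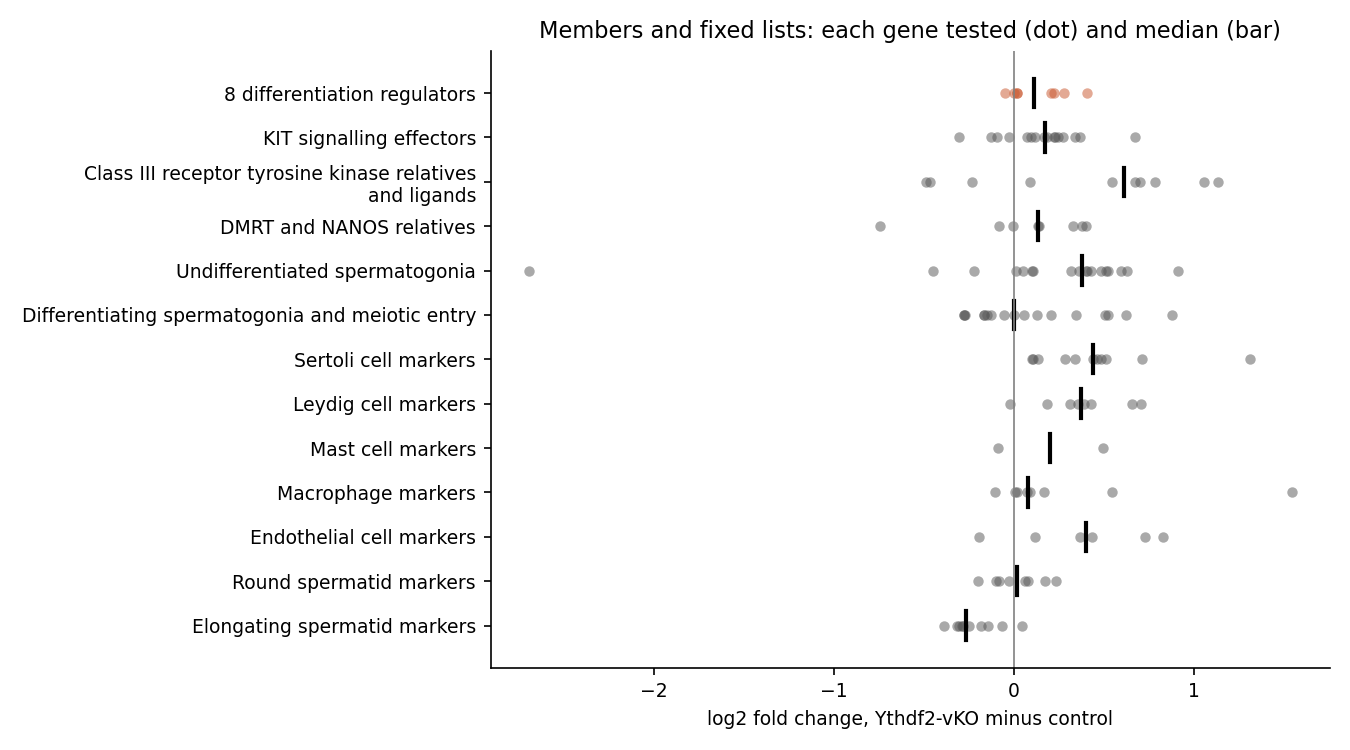
Fitted log2 fold change, Ythdf2-vKO minus control, of every gene tested in the members and in each list (dots), with the median as a vertical bar. The bar of the 8 members is at 0.11, that of undifferentiated spermatogonia at 0.38, that of differentiating spermatogonia and meiotic entry at 0.00, and that of elongating spermatids at -0.27.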

How the data were processed

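Whole-testis RNA was depleted of ribosomal RNA and made into directional libraries, per the labels' protocols. The authors deposited raw read counts per gene, a mean normalized count (a signal) and their own comparison with its log2 fold change, standard error, test statistic (a score), p-value and adjusted p-value, per the file headers, whose column names are those of DESeq2. The submitters' processing notes name HISAT2 2.1.0 and HTSeq 0.6.1p1. The genome build and the use of strand in counting are not given in the sources used here. The deposited mean was recomputed from the counts within a relative difference of 4.9e-10. The table holds no gene under 10 counts in all, and rarer genes are not analysed here.

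Genes were tested with edgeR 4.0.16 (limma 3.58.1, R 4.3.3): TMM scaling, filtering by filterByExpr, a quasi-likelihood fit with robust estimation and genotype as its 1 term over 4 libraries, a prior count of 0.125, a two-sided F test and Benjamini-Hochberg adjustment over 21132 genes. The fit was tested on simulated data. CPM are scaled by TMM. The standard error is the absolute log2 fold change over the square root of F, and intervals use it at 95%. Coordinates and transcripts come from GENCODE M21 (GRCm38), matched for 25241 genes. Counts carry no molecular identifiers, so counting errors cover sampling only.

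Members and lists were chosen with earlier results of these data known. The naming rule took Ythdf2, the 8 members, and from each list every called gene and at most 4 genes with the smallest unadjusted p under 0.05. The text gives the called gene and, for the lists of regulators, the others so chosen, and for markers of other cell types only counts, sums and medians. The mast cell markers Cpa3, Hdc and Gata2 are exceptions to this and were named after their values were seen. Alternatives covered scaling, filters, DESeq2 1.42.0, prior count, thresholds, length and GC offsets, the replicate block and each library left out.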

Additional observations from a re-analysis of the deposited data

How the results depend on the processing

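No alternative called any of the 8 members, and the adjusted p of Kit stayed between 0.122 and 0.419 with all libraries. Kit, Sohlh1 and Dmrt1 kept their sign in all 17 alternatives. Values near 0 changed sign. Kitl was -0.0299 with the gene length offset, -0.0309 with that offset and the replicate block, and -0.0012 with the replicate block. It was -0.0175 without control replicate 2 and -0.094 without Ythdf2-vKO replicate 1. Its highest value with a library left out was 0.0909. With the GC offset Kitl was 0.1083, and with the GC offset and replicate block 0.1045. Stra8 was -0.25 without control replicate 1 and -0.16 without Ythdf2-vKO replicate 1, against 0.35 without control replicate 2. Sohlh2 was 0.0141 with library totals alone, 0.0235 without control replicate 2, -0.12 without control replicate 1 and 0.0055 without Ythdf2-vKO replicate 1. Dmrtb1 was -0.1616 with the GC offset, -0.1599 with the GC offset and replicate block, -0.15 without control replicate 2, 0.19 without control replicate 1 and -0.0020 without Ythdf2-vKO replicate 2. Nanos3 was -0.20 without Ythdf2-vKO replicate 1 and 0.64 without Ythdf2-vKO replicate 2. The members' median was 0.18 with library totals alone, and 0.018 to 0.18 with a library left out, lowest without Ythdf2-vKO replicate 1.

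Over all genes, 59 were higher and 24 lower. Library totals alone gave 181 and 37, the DESeq2 Wald test 137 and 80, the replicate block 627 and 390, the GC offset with replicate block 309 and 251, and an adjusted p under 0.01 gave 8 and 2. Lower genes were 49 with the GC offset, 11 with the gene length offset and replicate block, and 15 without robust estimation. With a library left out, higher genes ran from 30 to 1048 and lower genes from 5 to 523. Of the listed genes, 1 was called, against 3 with the DESeq2 Wald test and with library totals alone, 2 with the GC offset, 7 with the GC offset and replicate block, 11 with the replicate block, 0 with the gene length offset and replicate block, without robust estimation and at an adjusted p under 0.01, and 0 to 23 with a library left out. With the replicate block, the named genes Grb2, Pdgfra, Dmrtc2, Eomes, Ccnd2 and Rara passed, and with the GC offset and replicate block Ythdf2 passed at 0.42 (adjusted p 0.0324). Wt1 was no longer called with the gene length offset and replicate block (adjusted p 0.0504). The cause was not tested, except that a stricter threshold passes fewer genes by construction. The difference of replicate 1 from replicate 2 in control correlated at 0.0932 with that in Ythdf2-vKO across 17827 genes. The labels do not say that shared numbers pair libraries, and with 2 pairs in all they were not treated as a pairing. The ratio of Kit to Kitl by merged exons, 0.665, was chosen after seeing the data. Low depth limits Nanos3 above all.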
